A study of Drosophila melanogaster with 63 samples.

Results

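The mitochondrial ribosomal proteins are the proteins of the ribosome that works inside mitochondria. They were followed here as 1 set of genes through starvation, a sugar diet and larval growth of Drosophila melanogaster. Members were taken by symbol, as all genes whose current symbol starts with mRpL (large subunit) or mRpS (small subunit) followed by a number. No gene was added or dropped by the size of its value, but the family was chosen with earlier results of these data known. RefSeq lists 73 such genes, the array annotation names 63 of them, and 52 had values, out of 9212 measured genes. The 52 comprise 36 members of the large and 16 of the small subunit, and each had a value in all 12 groups. The 11 annotated members without a value were mRpL11, mRpL13, mRpL23, mRpL32, mRpL33, mRpL48, mRpL54, mRpS10, mRpS16, mRpS24 and mRpS28.

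Mitochondria keep a small genome of their own, and their ribosomes translate its messages, which in animals encode core subunits of the respiratory chain and of ATP synthase. The proteins of these ribosomes are encoded in the nucleus, made in the cytosol and imported. Some are counterparts of bacterial ribosomal proteins and carry the same numbers, while others are found in mitochondria and have no bacterial counterpart. In flies, mutation of tko, which encodes a small-subunit protein, gives slow larval growth and sensitivity to mechanical shock.

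The animals were of the wild-type strain OregonR, kept at 25 C, and RNA was taken as total RNA and hybridised against a control in the other dye channel. Adult flies starved on filter paper soaked in PBS, or fed PBS with 20% sucrose only (sugar), were set against adults of the same sex given yeast paste. For starvation there were 6 arrays of females at 24 h, 5 of females at 48 h and 6 of males at 24 h. For sugar there were 5 and 6 arrays of females and 6 and 4 of males, each at 24 and 48 h. Larvae on apple juice agar with yeast, of 52, 64, 76, 88 and 100 h after egg laying, had 6, 5, 6, 4 and 4 arrays and were set against larvae of 40 h. The labels name no mutation or transgene. The sources used here do not give the age of the adults, their mating state, the number of animals pooled or whether groups shared control animals.

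Each value is the authors' log2 ratio of a group to its control, a scale on which 0 is equal and a value of -1 is 2-fold lower. All arrays of a group hold the same merged ratio. Each gene therefore has 1 value in each group, without replicate spread, error or test, and "higher" and "lower" describe values only. Differences between clones of the same gene, for the 645 genes with exactly 2 clones, give the only technical yardstick. Its 95th percentile was 0.54 and 0.74 in females starved for 24 and 48 h and 0.50 and 0.78 in those given sugar for as long. For males it was 0.36 under starvation, and 0.37 and 0.50 with sugar. From the youngest to the oldest larvae it was 0.62, 0.65, 0.85, 0.91 and 1.09. Every member rests on 1 clone, so none has a clone spread of its own. The ratio most likely runs as treated over control. The basis for this is the control named on each array, the storage protein gene Lsp2 at 8.26 in larvae of 100 h, and 9 of 9 measured egg formation genes at least 2-fold lower in all 4 groups of females without yeast.

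In larvae, the mitochondrial ribosomal protein genes lay further below larvae of 40 h at each later age. The median of the 52 members was -0.13 at 52 h, -0.32 at 64 h, -0.48 at 76 h, -0.98 at 88 h and -1.47 at 100 h, while the median of all genes stayed between -0.03 and 0.02. At 100 h the median member was thus 2.76-fold below the 40 h control, and at 88 h 1.97-fold. The fan of values widened with age: the standard deviation over members was 0.12 at 52 h, 0.39 at 88 h and 0.61 at 100 h. Over all genes it was 0.35, 0.63 and 0.80 at these ages, so the widening was not particular to the members.

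**Figure D1:**
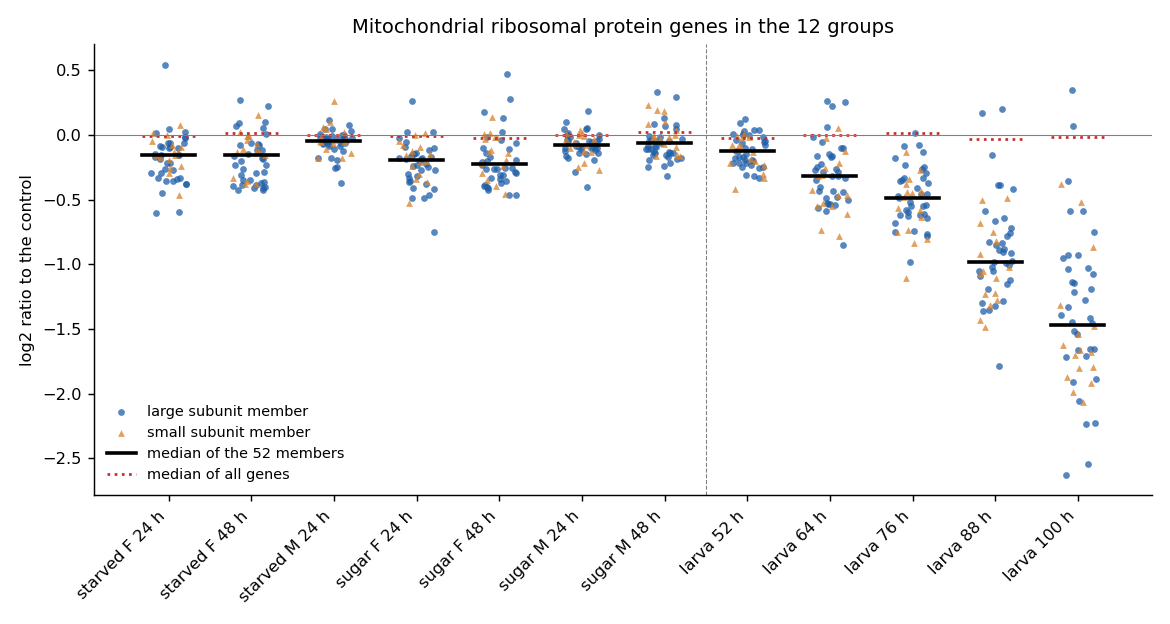
Log2 ratio to the control (vertical axis) of each of the 52 members in the 12 groups, with the member median as a black bar and the median of all genes as a dotted line. The adult groups scatter near 0 with females slightly below males, and the larval groups step down to a median of -1.47 at 100 h.

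Counts past a fold show the same course beside the share of all genes. Members at least 1.5-fold lower numbered 0 at 52 h (3.56% of all genes), 5 at 64 h (2.44%), 18 at 76 h (7.75%), 44 at 88 h (9.37%) and 46 at 100 h (14.2%). A 2-fold distance below the control was reached by 0 members at 64 h (0.185% of all genes), 1 at 76 h (2.81%), 24 at 88 h (4.23%) and 40 at 100 h (6.77%). None of the 52 was 1.5-fold higher at these ages (1.77%, 3.68%, 5.74%, 7.63% and 11.4% of all genes). With a smaller log2 distance of 0.32, members below the control numbered 3 (8.45%), 25 (10.6%), 41 (17.1%), 49 (19.6%) and 50 (24.8%). A count that does not depend on the widening spread is the lowest 10% of all measured genes at each age. It held 6 members at 52 h, 24 at 64 h, 25 at 76 h, 44 at 88 h and 44 at 100 h. Set against the clone yardstick, 28 members at 88 h and 37 at 100 h lay below the control by more than the 95th percentile, as did 4.99% and 6.12% of all genes. At 64 and 76 h 3 and 2 members did so, against 1.77% and 3.58% of all genes.

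Between consecutive ages, 35 of the 52 members were lower at all 4 steps, as were 4.58% of all genes. No member was higher at all 4 (3.85%). The median step was -0.20 from 52 to 64 h, -0.17 from 64 to 76 h, -0.43 from 76 to 88 h and -0.51 from 88 to 100 h, against medians of all genes between -0.03 and 0.02. The number of members with a step below 0 was 44 (46.1% of all genes), 46 (48.9%), 50 (54.6%) and 47 (48.6%) in that order. Each age was set against larvae of 40 h, and whether these were the same larvae is not given, so a step also holds any difference between controls. Of the 17 members that were not lower at every step, 13 missed only 1. The share of all genes that missed only 1 step was not counted, so this number has no background beside it.

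The labels name larvae and no dissected tissue, and in such samples fewer cells of a type and less RNA per cell cannot be told apart. Markers of other tissues also lay away from 0 at some ages. Of 4 measured testis markers, the spermatid gene dj lay at 0.03, 0.07, 0.62, 1.09 and 2.24 from 52 to 100 h and betaTub85D, the testis tubulin, at -0.02, 0.11, 0.53, 1.18 and 1.92, while aly and can stayed between -0.20 and 0.23. The 4 measured muscle markers had medians of 0.05, -0.13, 0.02, 0.60 and -0.09 at those ages, and the 3 germline markers -0.14, 0.01, 0.08, 0.00 and 0.19. The 9 egg formation genes had medians between -0.47 and 0.06 over the 5 ages. Levels cannot be summed from ratios, and the part of these markers in the course of the members was not tested.

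Among large-subunit members, the stalk that recruits elongation factors in bacteria is built of counterparts of mRpL12 and mRpL10. mRpL12, its mobile part, lay at -0.17, -0.52, -0.78, -1.78 and -2.54 from 52 to 100 h. It was the lowest of all members at 88 h and the second lowest at 100 h, where it was 5.81-fold below the 40 h control. mRpL10, which anchors the stalk, lay at -0.11, -0.53, -0.61, -1.05 and -1.54, close to the member median at 88 and 100 h. mRpL1, which in bacteria forms the stalk on the other side where spent tRNA leaves, lay at -0.25, -0.50, -0.61, -0.98 and -1.51. mRpL9, which in bacteria reaches out beside that stalk, lay at -0.10, -0.26, -0.41, -0.85 and -1.71.

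Members near the catalytic centre did not share 1 course. mRpL2 lay at -0.20, -0.31, -0.45, -1.01 and -1.67, with most of its distance from the control reached at 88 and 100 h. mRpL3 lay at -0.18, -0.10, -0.25, 0.17 and -0.75, and was thus above the 40 h larvae at 88 h and below them at the other 4 ages. mRpL16, which in bacteria sits where tRNA is placed for peptide bond formation, lay at -0.25, -0.53, -0.47, 0.20 and 0.07. It was below the member median at 52 and 64 h and stood above the control at 88 and 100 h. Every larval value of mRpL3 and mRpL16 lay within the clone yardstick of its age. The genome span of mRpL16 overlaps arm, which encodes the fly beta-catenin and was not measured here. The spans of mRpL15, mRpL17, mRpL18, mRpL35 and mRpS31 likewise overlap a gene that was not measured. The files record no strand, so the values of these 6 members are uncertain. The same holds for 23 members whose overlapping gene was measured, which are set beside their neighbours further on.

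The exit tunnel, through which the new protein leaves, is lined in bacteria by counterparts of mRpL4 and mRpL22 and framed by those of mRpL17 and mRpL24. mRpL4 lay nearest to the control at 100 h among members that were lower at each step, at 0.13, -0.01, -0.08, -0.16 and -0.35. mRpL22 lay at 0.04, 0.06, -0.17, -0.91 and -1.41, above the control until 64 h and below it from 76 h. mRpL24 lay at -0.06, -0.15, -0.23, -0.97 and -1.45, with a step of -0.74 from 76 to 88 h. mRpL17 lay at 0.00, -0.22, -0.60, -1.36 and -1.19, and thus reached its lowest value at 88 h. mRpL45, which in mammals attaches the ribosome to the inner membrane, lay at 0.00, -0.29, -0.29, -0.59 and -1.04.

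Other members with bacterial counterparts were among the lowest at 100 h. mRpL20 lay at -0.06, -0.25, -0.51, -1.29 and -2.23 and mRpL21 at 0.04, -0.06, -0.34, -0.82 and -2.23 (their bacterial counterparts bind the large ribosomal RNA, and that of mRpL20 is needed for subunit assembly). mRpL15 lay at -0.04, -0.29, -0.64, -1.02 and -2.05. All 3 were at or above -0.29 at 64 h and over 4-fold below the control at 100 h. mRpL14 and mRpL19, whose bacterial counterparts lie at the face that meets the small subunit, differed: mRpL14 lay at -0.31, -0.48, -0.77, -1.32 and -1.91 and mRpL19 at -0.22, -0.17, -0.46, -0.64 and -0.58. mRpL30 lay at -0.25, -0.54, -0.68, -1.05 and -1.89, mRpL35 at -0.08, -0.32, -0.35, -0.78 and -1.15 and mRpL28 at -0.01, -0.10, -0.33, -0.42 and -0.59. Of these last 3, mRpL28 stayed nearest to the control at each age from 52 h to 100 h.

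The central protuberance, a crown on the large subunit, holds in mammals the counterparts of mRpL18, mRpL38, mRpL40, mRpL46 and mRpL52. mRpL38 lay at -0.31, -0.43, -0.74, -1.12 and -1.72, mRpL46 at -0.05, -0.16, -0.49, -1.09 and -1.39 and mRpL52 at -0.17, -0.56, -0.62, -1.19 and -1.45. These 3 were lower at each step, and between 2.63- and 3.29-fold lower at 100 h. mRpL18 lay at -0.19, -0.59, -0.54, -0.89 and -1.07, 1 of 5 members at least 1.5-fold lower already at 64 h. mRpL40 followed the others to 88 h and then stood above the control, at -0.23, -0.49, -0.54, -0.83 and 0.35. Its step of 1.18 from 88 to 100 h was the highest of any member at any step. It was the 1 member more than 0.32 above the control at 100 h (21.8% of all genes), and its ratio lay within the clone yardstick.

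At 100 h, mitochondria-specific members of the large subunit held both ends of the range of the 52 members, from -2.63 (mRpL51) to 0.35 (mRpL40). mRpL51 was the lowest member at 100 h, at -0.22, -0.40, -0.75, -1.15 and -2.63, and its last step of -1.48 was the lowest of any member. mRpL50 lay at -0.33, -0.85, -0.98, -1.36 and -1.33, the lowest member at 64 h, and did not go further after 88 h. mRpL39, which is related to threonyl-tRNA synthetase, lay at 0.01, -0.27, -0.62, -1.29 and -1.65. mRpL44, which carries a fold related to RNase III, lay at -0.20, -0.35, -0.37, -0.67 and -1.21. mRpL37, mRpL41 and mRpL43 were lower at each step and lay at -0.93, -1.27 and -1.13 at 100 h.

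A few members were still above the control at 64 h. mRpL47, the counterpart of a bacterial protein at the tunnel exit despite its number, lay at 0.03, 0.26, -0.13, -0.75 and -1.03. mRpL49 lay at 0.10, 0.26, -0.07, -0.88 and -1.66 and mRpL42 at 0.01, 0.23, 0.01, -0.39 and -0.92. With mRpL22 and mRpS22, these were the 5 members above the control at 64 h (50.7% of all genes), and all 5 were below it at 88 h. At 76 h mRpL42 was the 1 member left above it (53.0%). mRpL55 lay at -0.21, -0.33, -0.26, -0.39 and -0.95, with its largest step after 88 h.

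All 16 small-subunit members were below the control at 100 h, as were 34 of 36 large-subunit members and 4760 of 9197 genes. The small-subunit member nearest to the control was mRpS25 at -0.38, and the lowest was mRpS2 at -2.07. mRpS2 lay at -0.30, -0.55, -0.75, -1.31 and -2.07. mRpS6 lay at -0.33, -0.78, -1.10, -1.48 and -1.99 and was the first member to reach a 2-fold distance, at 76 h. In bacteria the counterpart of mRpS6 pairs with that of the mRpS18 genes, of which flies have 3. mRpS18A lay at -0.12, -0.12, -0.56, -1.43 and -1.79 and mRpS18B at -0.09, -0.43, -0.74, -0.92 and -1.48, while mRpS18C lay at -0.02, -0.32, -0.38, -0.49 and -0.52 and so stayed between -0.52 and -0.32 from 64 h on. In mammals the protein related to mRpS18A, like that related to mRpS30, has been found in the large subunit, so the split by symbol is not exact.

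In the head of the small subunit, mRpS7 lay at -0.13, -0.52, -0.48, -1.05 and -1.66 and mRpS9, beside the tRNA sites in bacteria, at -0.07, -0.26, -0.43, -0.68 and -0.86. mRpS17, whose bacterial counterpart binds ribosomal RNA early in assembly, lay at -0.20, -0.55, -0.44, -1.08 and -1.68. mRpS29, a GTP-binding protein known in mammals as DAP3, lay at -0.41, -0.61, -0.83, -1.28 and -1.80, and was the lowest member at 52 h. mRpS30 lay at -0.19, -0.73, -0.80, -1.22 and -1.92, mRpS31 at -0.21, -0.47, -0.63, -1.22 and -1.70 and mRpS35 at 0.00, -0.21, -0.45, -1.02 and -1.87. These 4 ended between -1.92 and -1.70, though mRpS35 began at 0.00 and mRpS29 at -0.41. mRpS26 lay at -0.23, -0.31, -0.58, -1.11 and -1.62, mRpS34 at -0.08, -0.46, -0.34, -0.75 and -1.31 and mRpS22 at 0.02, 0.05, -0.27, -0.82 and -1.54. mRpS25 lay at -0.02, -0.02, -0.13, -0.51 and -0.38, and was less than 1.5-fold lower at each age.

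**Figure D2:**
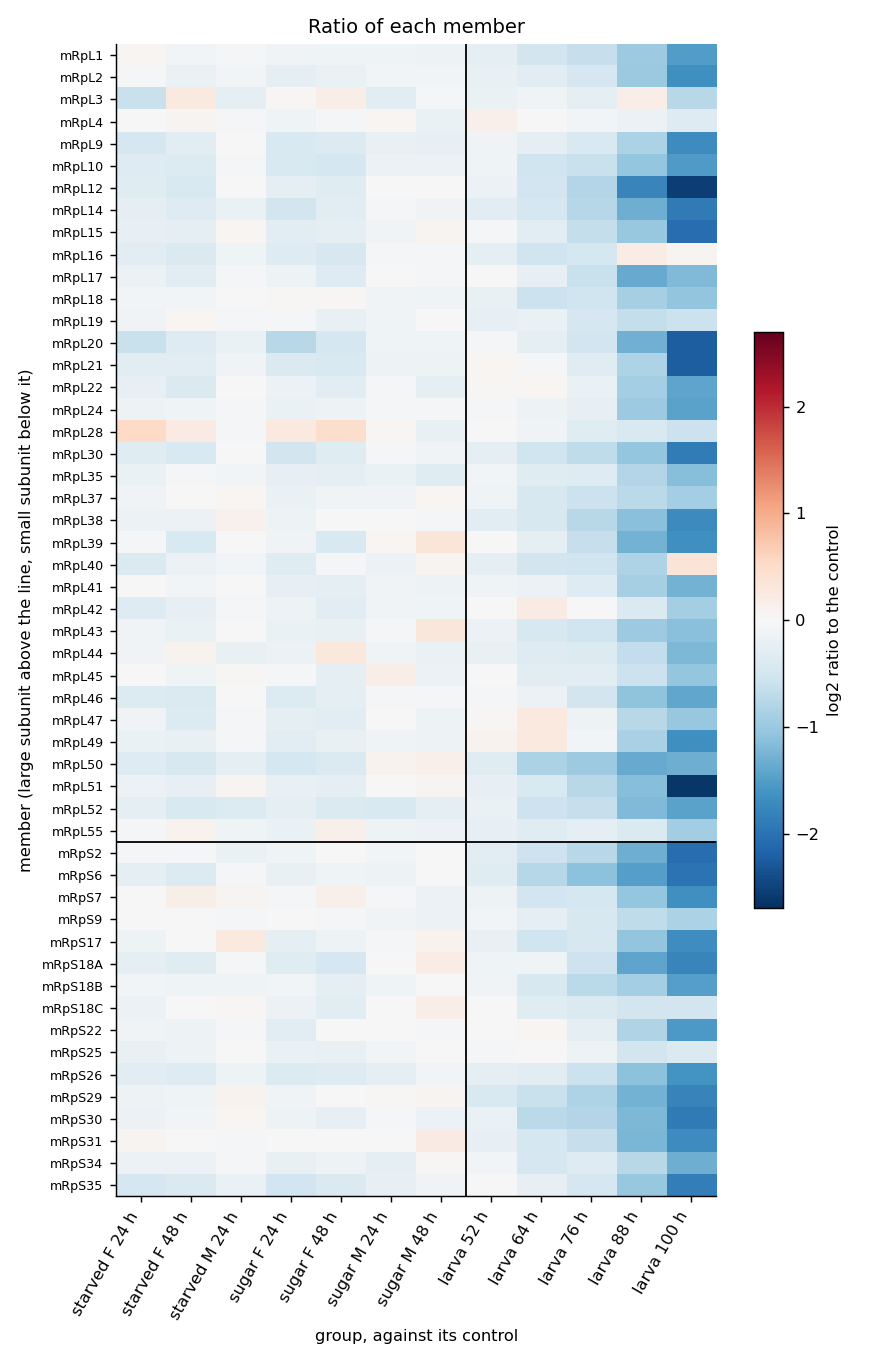
Log2 ratio to the control (colour, blue below and red above 0) of each of the 52 members (rows, large subunit above the line and small subunit below it) in the 12 groups (columns, adults left and larvae right). The larval columns darken to blue from 64 to 100 h in nearly every row, with mRpL16 and mRpL40 above 0 at 100 h and mRpL28 above 0 in all 4 columns of females.

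At 100 h, 6 members were over 4-fold below larvae of 40 h (1.63% of all genes): mRpL51, mRpL12, mRpL21, mRpL20, mRpS2 and mRpL15. Another 6 were less than 1.5-fold lower or were higher: mRpL40, mRpL16, mRpL4, mRpS25, mRpS18C and mRpL19. The last of these, at -0.58, sat next to mRpL28 at -0.59, which just passed 1.5-fold. At 64 h, the 5 members at least 1.5-fold lower were mRpL50, mRpS6, mRpS30, mRpS29 and mRpL18.

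Large- and small-subunit members had overlapping ranges at each larval age, from -2.63 to 0.35 and from -2.07 to -0.38 at 100 h. Their medians were -0.13 and -0.12 at 52 h, -0.30 and -0.44 at 64 h, -0.48 and -0.52 at 76 h, -0.91 and -1.06 at 88 h, and -1.36 and -1.67 at 100 h, each with the large subunit first. The 2-fold mark was passed at 100 h by 27 of 36 large-subunit and 13 of 16 small-subunit members (6.77% of all genes). Split by number instead, the 28 members numbered like bacterial proteins lay at a median of -1.53 at 100 h and the 24 with higher numbers, mostly without a bacterial counterpart (mRpL47 has one), at -1.36. At 88 h these medians were -0.98 and -0.95.

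A pair of mitoribosomal genes with other names was also measured. tko, which encodes the protein of the decoding centre, lay at 0.11, 0.27, -0.19, -0.93 and -1.85 from 52 to 100 h. At 64 h it stood just above the highest member, mRpL47 at 0.26, and at 76 to 100 h it was within the range of the members. bonsai, the counterpart of bacterial S15, lay at -0.20, -0.72, -0.78, -1.02 and -1.67.

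Other genes of mitochondrial gene expression were set beside the members. The 8 measured mitochondrial translation factors had medians of 0.02, -0.22, -0.38, -0.80 and -0.97 from 52 to 100 h. At least 1.5-fold lower were 5 of 8 at 88 h (9.37% of all genes) and 6 of 8 at 100 h (14.2%). The elongation factor genes mEFTu1 (-2.04) and mEFG1 (-1.67) were lowest at 100 h, and mEFTu2 (-0.33) and the initiation factor gene mIF3 (-0.43) were nearest to the control. The 14 measured mitochondrial tRNA synthetases lay closer to it, with medians of -0.06, -0.13, -0.19, -0.26 and -0.36. By 100 h, 5 of 14 had reached 1.5-fold below the control (14.2% of all genes). LeuRS-m (-1.50) and TyrRS-m (-1.47) were lowest, and ValRS-m (0.37) and AspRS-m (0.07) highest.

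The genes listed for upkeep of mitochondrial DNA, its transcription and the RNA made from it were split. At 100 h, 4 of 11 were at least 1.5-fold lower (14.2% of all genes). mtSSB, which binds single-stranded mitochondrial DNA, lay at -2.13 and bsf at -1.92, while mTerf5 lay at 0.57. Of the 14 import genes measured at 100 h, 8 were at least 1.5-fold lower (14.2%), led by the chaperone cofactor Roe1 at -2.22. The 7 measured regulators of growth and of mitochondrial genes had 0 genes 1.5-fold lower at any larval age, where 2.44% to 14.2% of all genes were, so a count of 0 of 7 is near the background. Among them, crc lay at 0.71 at 100 h.

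The respiratory chain and ATP synthase, whose core subunits the mitochondrial ribosome makes, stayed near the control for longer in their nuclear-encoded part. The 50 measured genes had medians of -0.01, -0.04, 0.05, -0.08 and -0.98 from 52 to 100 h. At 88 h 44 of 52 mitochondrial ribosomal proteins were at least 1.5-fold lower, against 1 of these 50 genes (9.37% of all genes). At 100 h 46 of 52 were, against 36 of 50 (14.2% of all genes). Without 14 related copies, whose symbols add L or L and a digit to that of a subunit, the medians at 88 and 100 h were -0.18 and -1.31, and 1 and 34 of the 36 genes left were 1.5-fold lower. The 24 measured genes listed as cytosolic ribosomal proteins, which build the ribosome outside mitochondria, include 4 genes with symbols ending in -like. The 24 had medians of -0.14, -0.31, -0.32, -0.24 and -0.61. At 88 h 2 of 24 (9.37% of all genes) and at 100 h 13 of 24 (14.2%) had reached 1.5-fold below the control. Both at 88 h were among these 4 (RpLP0-like and RpL7-like), and without the 4 the counts were 0 of 20 and 10 of 20.

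**Figure D3:**
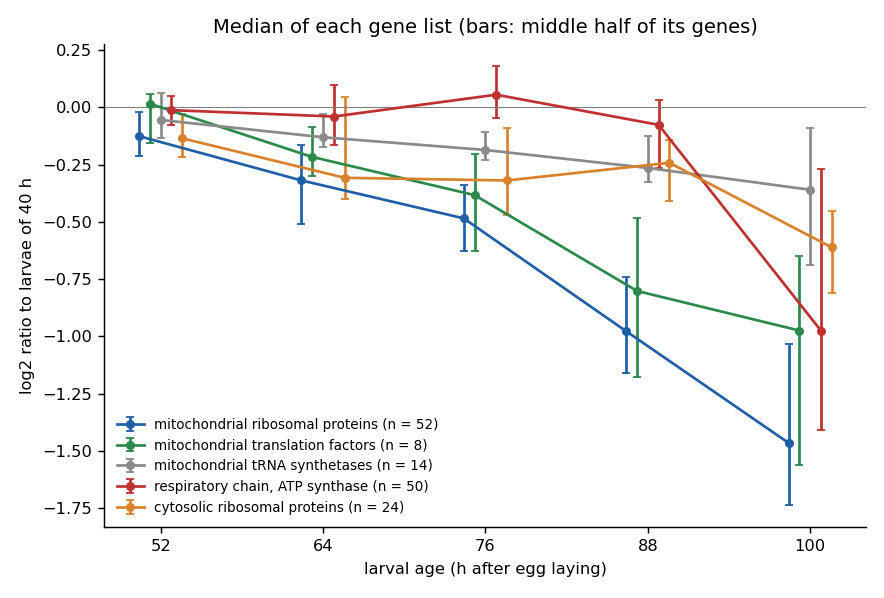
Median log2 ratio to larvae of 40 h (vertical axis) against larval age in hours after egg laying for 5 gene lists, with bars from the 25th to the 75th percentile of the genes of each list and points set slightly apart. The mitochondrial ribosomal proteins lie lowest from 64 h on, and the respiratory chain list stays near 0 up to 88 h and reaches -0.98 at 100 h.

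Many members sit tightly against other genes in the genome, and since the files record no strand, genes that overlap cannot be fully told apart. In the RefSeq annotation the spans of 29 of the 52 members overlap another gene, and for 23 of these an overlapping gene was itself measured, which gives 24 pairs with 24 neighbours. At 100 h the members of these pairs had a median of -1.33 and their neighbours -0.05, against -0.02 for all genes. At least 1.5-fold lower were 20 of 23 members and 2 of 24 neighbours (14.2% of all genes), so the count of neighbours is near the background. The member lay below its neighbour in 23 of 24 pairs, at an age when 50 of all 52 members were below 0 (4760 of 9197 genes). The medians were -0.91 and -0.06 at 88 h, -0.41 and 0.09 at 76 h, and -0.31 and -0.05 at 64 h, with the members first. At 52 h they were -0.10 and -0.04, and the member was the lower in 13 of 24 pairs.

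Individual pairs had the same order. mRpL51 lay at -2.63 and its neighbour PIG-U at 0.07 at 100 h. mRpL2 lay at -1.67 and Ufd1 at 0.20, and mRpL39 at -1.65 and Zip71B at 0.21. mRpS9 overlaps ArgRS-m, a mitochondrial tRNA synthetase, and the pair lay at -0.86 and 0.01. Both neighbours that were themselves 1.5-fold lower were Fkbp39, at -1.56 beside mRpL9 at -1.71, and POLDIP2, at -0.61 beside mRpL44 at -1.21. The only pair in which the member was the higher was mRpL4 at -0.35 with CG4278 at -0.42.

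**Figure D4:**
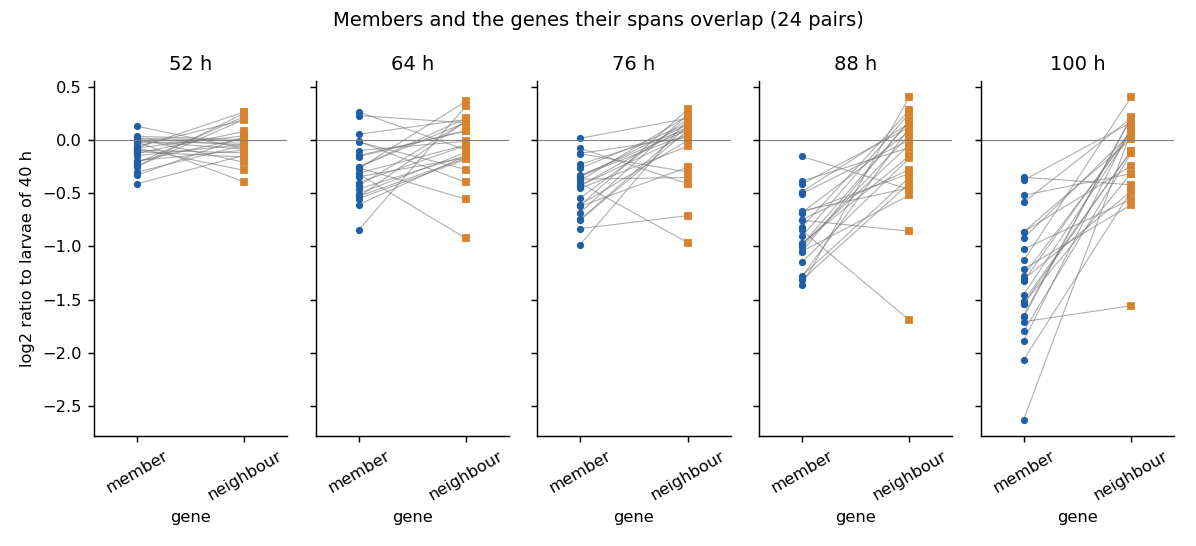
Log2 ratio to larvae of 40 h (vertical axis) of 23 members (left in each panel) and of the 24 measured genes that their spans overlap (right), joined by lines, at the 5 larval ages. At 100 h the members have a median of -1.33 and the neighbours -0.05.

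In adult females without yeast, the members lay slightly below yeast-fed females. The median was -0.15 after 24 h and -0.16 after 48 h of starvation, and -0.19 and -0.22 after as long on sugar, while the median of all genes was between -0.02 and 0.02. In the order of these 4 groups, 45 (51.6% of all genes), 43 (47.8%), 48 (51.3%) and 44 (53.1%) of the 52 were below 0. The distances were small. A log2 distance of 0.32 below yeast-fed females was reached by 11 (7.0%), 16 (10.9%), 13 (8.62%) and 14 (14.3%) members, and 1.5-fold by 2 (2.43%), 0 (1.95%), 1 (2.81%) and 0 (3.39%). No member was 2-fold lower (0.893%, 0.727%, 1.12% and 1.26% of all genes) or 1.5-fold higher (1.84%, 6.44%, 2.19% and 6.04%). Few member values lay beyond the clone yardstick. Past it on the low side were 2 members under starvation (2.83% of all genes) and 2 on sugar (3.91%) at 24 h, and 0 at 48 h (1.13% and 1.98%).

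The measured genes that overlap members in the genome were also low in these females. Over the 24 pairs, the medians of the members and of their neighbours were -0.10 and -0.07 after 24 h and -0.13 and -0.13 after 48 h of starvation, and -0.17 and -0.10, then -0.19 and -0.13, on sugar. The member was the lower in 15, 11, 16 and 14 of 24 pairs, so in these groups many pairs did not have the order seen in older larvae. Without the 29 members that overlap another gene, the medians were -0.23 and -0.20 under starvation and -0.24 and -0.24 on sugar.

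mRpL20 was among the 3 lowest members in 3 of these 4 groups. It lay at -0.60 and -0.35 after 24 and 48 h of starvation and at -0.75 and -0.46 after as long on sugar. mRpS35 lay at -0.46 and -0.38 under starvation and -0.53 and -0.39 on sugar, and mRpL14 at -0.26 and -0.35 under starvation and -0.49 and -0.30 on sugar. mRpL10, the stalk anchor, lay at -0.36 and -0.36 under starvation and -0.41 and -0.47 on sugar, and mRpL12 at -0.33 and -0.40 under starvation and -0.27 and -0.34 on sugar. These 5 members, named for their low values or their role, were below yeast-fed females in all 4 groups. This does not set them apart, since 43 to 48 of the 52 members were below 0 in each group (47.8% to 53.1% of all genes).

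mRpL28 was the highest member in 3 of the 4 groups of females and came after mRpL3 in females starved for 48 h. It lay at 0.55 and 0.23 under starvation and at 0.26 and 0.47 on sugar, at 24 and 48 h in each case. It was the 1 member more than 0.32 above the control in starved females at 24 h (7.93% of all genes) and likewise on sugar at 48 h (15.9%). In starved females at 24 h it passed the yardstick of 0.54, as did 2.33% of all genes on the high side. mRpL3 lay on both sides of the control, at -0.60 and 0.27 under starvation and 0.02 and 0.18 on sugar. Its step of 0.87 between 24 and 48 h of starvation was the highest of any member. mRpL44 lay at -0.09 and 0.10 under starvation and -0.17 and 0.28 on sugar and mRpS7 at 0.00 and 0.16 under starvation and -0.04 and 0.14 on sugar, each above 0 at 48 h on both regimes.

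In males the members lay nearer to the control. The median was -0.04 for starvation at 24 h, -0.07 for sugar at 24 h and -0.06 for sugar at 48 h, against all-gene medians of 0.00, 0.00 and 0.02. Below 0 were 40 (48.6% of all genes), 40 (48.7%) and 39 (45.4%) of the 52 members. More than 0.32 below the control were 1 (4.72%), 1 (5.10%) and 0 (8.11%), shares below those of all genes. No member of the set was 1.5-fold lower in males (1.69%, 2.29% and 3.50% of all genes) or 1.5-fold higher (0.196%, 0.413% and 0.749%). mRpL52 was the lowest member in both groups of 24 h, at -0.37 in starved males and -0.40 on sugar, and it lay at -0.24 at 48 h on sugar. In both groups of 24 h mRpL52 was the 1 member below the control by more than the clone yardstick, as were 371 of 9193 and 391 of 9205 genes. mRpS17 was the highest in starved males, at 0.26, and mRpL39 was the highest in males on sugar at 48 h, at 0.33, where it was the 1 member more than 0.32 above the control (7.60% of all genes).

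Set directly against each other, ratios of females were mostly below those of males under the same treatment. The median difference, females minus males, was -0.13 for starvation at 24 h, -0.14 for sugar at 24 h and -0.16 for sugar at 48 h, against 0.00, 0.01 and 0.00 for all genes. It was below 0 in 41 (49.3% of all genes), 42 (48.7%) and 39 (50.4%) of the 52 members. mRpL20 had the lowest difference on sugar at 24 h (-0.63), mRpL9 under starvation (-0.43), and mRpL39 on sugar at 48 h (-0.74). mRpL28 went the other way, with differences of 0.59, 0.22 and 0.67 in the same order of treatments, first starvation, then sugar at 24 and 48 h.

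**Figure D5:**
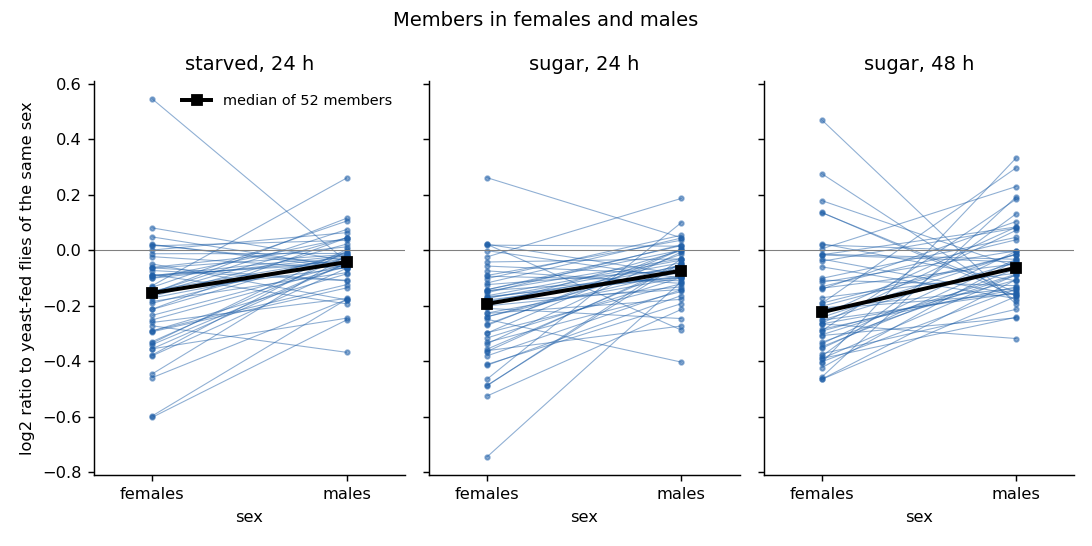
Log2 ratio to yeast-fed flies of the same sex (vertical axis) of each of the 52 members in females (left in each panel) and males (right), joined by lines, with the median as squares, for the 3 treatments measured in both sexes. The female medians of -0.15, -0.19 and -0.22 lie below the male medians of -0.04, -0.07 and -0.06.

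Markers of other tissues also lay away from 0 in females. All 9 measured egg formation genes were at least 2-fold lower in all 4 groups of females, with medians of -2.35 and -3.48 without food and -3.05 and -2.84 with sugar. In males their medians were between -0.08 and 0.12. These 9 genes were also part of the basis for the direction of the ratio, so their sign in females is not a separate result. The 4 muscle markers had medians of 0.50 and 1.11 in starved females and of 0.53 and 1.24 in females on sugar, and between -0.10 and 0.00 in males. The 3 measured germline markers, bam, stau and grk, had medians between -0.14 and 0.06 in females and between -0.08 and 0.11 in males. These medians hide opposite signs in females at 48 h. There bam lay at -0.39 without food and -0.38 with sugar, and grk at 0.23 and 0.35. The 4 testis markers had medians of 0.05 and -0.12 in starved females, 0.09 and -0.25 in females on sugar, and 0.22 to 0.32 in males. Egg formation, muscle and testis genes thus differed between the sexes along with the members, and their part in the ratios of the members was not tested.

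Starvation and sugar gave members' ratios whose medians lay close together. The difference, starvation minus sugar, had a median of 0.06 for females at 24 h, 0.01 for females at 48 h and 0.04 for males, and was above 0 in 35 (52.1% of all genes), 28 (52.0%) and 36 (53.3%) of the 52. Under other centring the value of 0.01 lay at -0.03, so it has no settled sign. mRpL3 had the largest difference, -0.62 in females at 24 h.

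Time on the regime made little difference to the median. The difference of 48 h minus 24 h had a median of -0.02 in starved females, 0.03 in females on sugar and 0.00 in males on sugar, and was above 0 in 23 (53.4% of all genes), 28 (49.5%) and 26 (52.4%) members. mRpL39 had the lowest difference in starved females (-0.35) and in females on sugar (-0.30). In males on sugar it had the third highest, at 0.28, and mRpL43 the highest, at 0.35.

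In adult females, part of the other mitochondrial translation genes lay with the members. The 8 measured translation factors had medians of -0.02 (7 genes) and -0.19 in starved females at 24 and 48 h and of -0.10 and -0.17 in females on sugar, which at 48 h is close to the members. The 14 mitochondrial tRNA synthetases had medians between -0.03 and 0.04 in these groups. The respiratory chain list had medians of -0.04 and 0.17 in starved females at 24 and 48 h and of -0.04 and 0.10 in females on sugar. Cytosolic ribosomal proteins had medians of -0.03 and 0.21 in starved females and of -0.02 and 0.27 in females on sugar. At 48 h the median of the mitochondrial ribosomal proteins was thus below 0 in females and those of both lists above it. tko lay at -0.35 and -0.23 in starved females and at -0.35 and -0.18 in females on sugar, and bonsai at -0.41 and -0.13 and at -0.35 and -0.19.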

How the data were processed

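RNA of a group and of its control were hybridised together on spotted arrays in 2 dye channels, with 3 scans of each array per the labels. The authors' deposited values are log2 ratios. Per the labels, spot copies and hybridisation repeats were merged into a single value, and the deposited columns of each of the 12 groups are identical. The sources used here do not give the background correction, the choice of scan or the normalisation. Base 2 was inferred by taking powers of the values: 99.996% of 144996 then had 6 decimals (tolerance 0.05 of the last), against 9.978% for base e.

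Clone names came from the platform annotation, and RefSeq (assembly Release 6 plus ISO1 MT) supplied current symbols. Of 12094 clones, 10148 had 1 symbol. Clones of a gene were summarised by their median, and no filter on low values was made. Counts used folds of 1.5, 2 and 4 and a log2 distance of 0.32. With 1 value per group no model was fitted and no p-value is given, and the 4 to 6 arrays behind a group limit the precision. The members and the 12 gene lists beside them were chosen with earlier results of these data known. Named members are the 3 highest and 3 lowest per group or difference, those 2-fold from the control, those lower at each larval step, and those whose role is told. From other lists at most the 2 highest and 2 lowest genes of a group are named, besides marker genes and overlapping neighbours. The counting steps were tested on simulated data, in Python 3.11.15 with pandas 2.3.3. A search of promoters was planned and was not run, since promoter sequences were not used here.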

Additional observations from a re-analysis of the deposited data

How the results depend on the processing

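No paired analysis was possible because all arrays of a group hold 1 merged value, so leaving out arrays in turn and a replicate block could not be run. The mean over clones, or the highest or lowest clone, changed no value, since each member has 1 clone, and symbols without updating gave the same 52 members. At a log2 distance of 0.32 in place of 1.5-fold, 11 and 16 members were lower in females starved for 24 and 48 h, 13 and 14 in females on sugar, 1 in males at 24 h on either regime, and 3, 25 and 41 in larvae of 52, 64 and 76 h. On the high side 1 member passed it in starved females at 24 h, in both sexes on sugar at 48 h, and in larvae of 100 h. At 2-fold, 0 members were lower in females at 24 h on either regime and in larvae of 64 h, where 2, 1 and 5 had passed 1.5-fold, and 1 and 24 at 76 and 88 h, against 18 and 44. After centring on the median of all genes, 0 members were above 0 at 76 h, against 1. The median difference of starvation minus sugar in females at 48 h was -0.0285 with that centring and -0.0280 with the 10% trimmed mean, against 0.0093. Without members that overlap another gene, the median difference of 48 h minus 24 h in males on sugar was 0.0068, against -0.0009. This alternative was chosen after seeing the data, as were the lists without related copies or without genes named -like. Apart from the folds themselves, the cause of these changes was not tested. The brightness of spots, which sets the precision of a ratio, was not used here.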
